A study of Mus musculus with 12 samples.

Results

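Solute carriers are the membrane proteins that move small molecules into, out of and within cells, and the genes described here are those the array names with a solute carrier symbol. They were chosen by name and level. A probe set was taken if its only gene symbol began with Slc followed by a family number, the letter a and a member number, and if its mean signal reached 50 in at least 1 zone, and the probe set with the highest mean log2 signal stood for each gene. The rule left out 13 carriers, among them the glucose carrier Slc2a1, the sulphate carrier Slc26a2 and the phosphate carrier Slc20a1. Of 307 other symbols that fit the name, 182 reached the signal and 125 did not, so the members are 182 of the 11847 genes with a probe set at that level. The members nearest the limit were Slc25a27, with a highest zone mean of 50.4, and Slc4a8, with 50.8, and the nearest symbols outside it were Slc12a1 at 48.2 and Slc8a1 at 47.5. Of the members, 150 reached the signal in all 3 zones, 15 in 2 zones and 17 in 1 zone only. The 17 members that passed through 1 zone had to be higher there, so the text below gives their signals, with no fold or test. The counts and the figures of log2 differences include such members, and there their direction follows in part from the limit. Of all members 169 had a mean of at least 50 over all arrays. The names of 4 members belong to adaptors or neighbouring genes and not to carriers, namely Slc9a3r1, Slc9a3r2, Slc4a1ap and Slc7a6os, and these were counted but are not discussed as carriers.

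The tibia of untreated CD1 mouse embryos at embryonic day 15.5 was cut by hand into 3 zones, and each zone was hybridized to 4 Affymetrix MOE 430 2.0 arrays lettered A to D, the RNA of a zone having been pooled over the animals of a litter, with 4 litters in all. By the study's description zone I, taken from either end, held resting and proliferating cells, zone II mostly prehypertrophic and hypertrophic cells, and zone III the most mature hypertrophic cells together with the mineralized part of the bone. All groups share age, strain and the lack of treatment, and they differ in the piece of the tibia taken. Differences are written as log2 of the later zone over the earlier zone with the SE from limma, folds are these differences on the linear scale, the signals are linear and scaled to a common trimmed mean of 150 on every array, and a member was called at a Benjamini-Hochberg adjusted p under 0.05. Signals of different probe sets are not compared with each other, and where a signal lies well below 50 the size of a fold rests on the background.

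Carriers are grouped by number into families that share sequence, and by substrate into classes. Most sit in the plasma membrane, where they bring in amino acids, sugars, sulphate, choline or metals, or exchange ions across the membrane. Others sit in the inner membrane of mitochondria, where most of the Slc25 family links the matrix to the cytosol. Still others sit in the Golgi and the endoplasmic reticulum, where nucleotide sugars enter for glycan synthesis. Cartilage cells live without vessels in a sulphated matrix that they make themselves, they swell when they become hypertrophic, and the osteoclasts that meet them at the bone front secrete acid across their membrane in exchange for bicarbonate.

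The zones differed in the markers of cell types. The 4 markers of hypertrophic chondrocytes, such as Col10a1, summed to signals of 307 to 501 (zone I), 8753 to 9972 (zone II) and 7897 to 9302 (zone III). The 6 chondrocyte markers summed to 16223 to 20922, 23361 to 26202 and 7912 to 10217 in the same order. The 8 osteoclast markers summed to 687 to 785, 677 to 1678 and 12732 to 15084, and all 8 were higher in zone III than in zone II (31% of all genes). The 7 measured macrophage markers summed to 1173 to 2028, 643 to 1017 and 4472 to 5374. All 7 rose from zone II to III (31% of all genes), but from zone I to III 4 rose and 1 fell (21.7% and 21.7%). The 1 that fell was Mrc1, highest in zone I, with means of 262, 51.3 and 127. The 8 endothelial markers summed to 777 to 1378, 331 to 636 and 2746 to 3102. The 7 measured osteoblast markers summed to 1188 to 1717, 4165 to 6565 and 11949 to 13049. Most of the zone II sum was Ibsp, with zone means of 54.3, 3362 and 3380. From zone I to II 5 of them rose and 0 fell in limma (16% and 25.4% of all genes), with Col1a1 lower at an unadjusted p of 0.0296. The means of Col1a1 were 1155, 828 and 3792, and those of Mepe, also not called at that step, 25.6, 32.9 and 295. Of the 8 muscle markers, 1 was lower in zone II than in zone I (25.4% of all genes), and the muscle sum of 470 to 2358 in zone I was the most uneven. Of the 7 nerve markers 3 were measured, with sums of 397 to 446, 156 to 247 and 116 to 193, and of the 9 erythroid markers 3 were measured, with sums of 236 to 256, 159 to 330 and 211 to 340. For the Gapdh control probe sets the 3' signal was 1.25 to 1.76 times the 5' signal in the cartilage zones I and II but 1.98 to 2.28 times in zone III, and for actin the order was the other way, 2.09 to 3.23 against 1.70 to 2.02. In such bulk samples fewer cells of a type and less RNA per cell cannot be told apart.

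Summed over all 182 members the signal was lowest in zone I and highest in zone II. The sums were 55180 to 58417 (zone I), 69944 to 74257 (zone II) and 63148 to 66447 (zone III), which is 1.02 to 1.09%, 1.21 to 1.34% and 1.23 to 1.25% of the signal of all genes. The ranges of the sums did not overlap between the zones, but those of the shares overlapped between zones II and III. The summed signal of all genes was also highest in zone II. By mean signal 65 members were highest in zone II, 83 in zone III and 34 in zone I.

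From zone I to zone II 45 members rose and 23 fell, or 24.7% and 12.6% of them. Over all genes the shares were 16% and 25.4%, so the carriers leaned to higher signals where the genes at large leaned to lower ones. With a difference of at least 1.5-fold as well, 32 members rose and 14 fell, where all genes had shares of 8.49% and 19.1%. The members' median log2 difference was 0.06, against -0.09 over all genes. The direction of the members' counts depended on the scale. Of the members 25 rose and 51 fell when the signals of ribosomal proteins were made equal on all arrays (ribosomal centring). Quantile normalization gave 52 and 16, and centring on the median gave 62 and 10. The median over all probe sets moved from -0.07 as deposited to -0.32 with ribosomal centring and to 0.11 with median centring. The members' median moved with it, to -0.19 and to 0.24, and stayed above it. The shares of all genes were not recounted under these scalings, here or below.

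From zone II to zone III 56 members rose and 48 fell, 30.8% and 26.4%, against 31% and 22.7% of all genes. These shares lie near the background. At 1.5-fold or more the counts were 49 and 35 and the shares of all genes 24.9% and 14.1%. The medians were 0.12 for the members and 0.09 for all genes. Median centring turned the balance to 45 higher and 67 lower, quantile normalization to 49 and 55, and ribosomal centring raised it to 96 higher and 25 lower.

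From zone I to zone III 61 members rose and 24 fell, 33.5% and 13.2%, against 21.7% and 21.7% of all genes. At 1.5-fold or more 47 rose and 15 fell, against 16.6% and 14.8% of all genes. The medians were 0.17 and -0.01. More members rose than fell under each scaling that was tried, with 57 against 29 by quantile normalization, 57 against 29 by median centring and 69 against 17 by ribosomal centring. A share of 30.2% of the members was called in none of the 3 comparisons, against 30.6% of all genes.

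The zone that stood apart was most often zone III. In 48 members, or 26.4%, all 4 arrays of zone III lay above all 8 arrays of the other zones, against 17.2% of all genes. Zone II lay above in 26 members (14.3% against 9.79%), and zone I in only 3, which are Slc12a2, Slc22a14 and Slc26a7 (1.65% against 9.05%). In the other direction zone I lay below in 14 members (7.69% against 4.85%), zone II in 16 (8.79% against 13.4%) and zone III in 17 (9.34% against 12.2%).

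**Figure D1:**
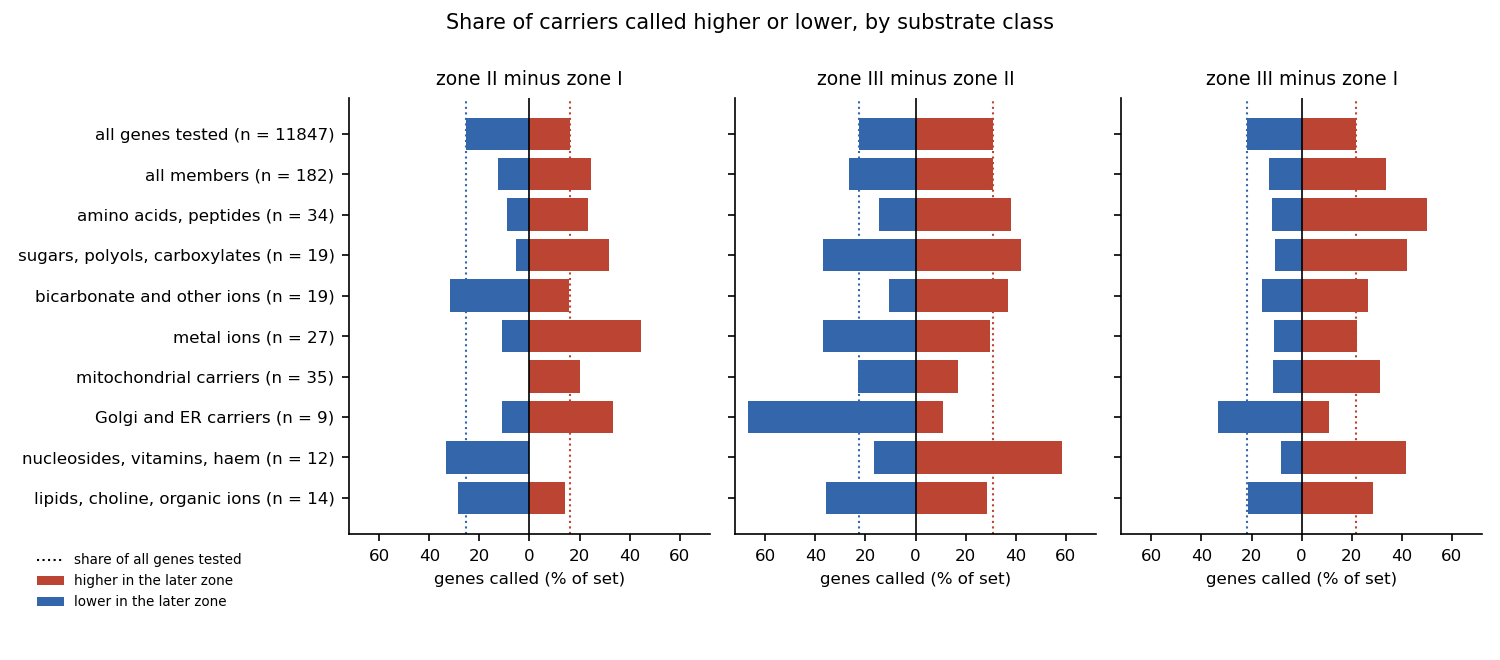
Percentage of the genes of each set called higher (red, to the right) or lower (blue, to the left) in the later zone at an adjusted p under 0.05, for the 3 comparisons, with dotted lines at the shares of all 11847 genes. Of the 8 classes drawn, each of 9 or more members, metal ion carriers extend farthest to the right from zone I to II (44.4%), Golgi and ER carriers farthest to the left from zone II to III (66.7%), and amino acid carriers farthest to the right from zone I to III (50%).

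Of the 19 carriers of sugars, polyols and carboxylates, 6 rose and 1 fell from zone I to II (31.6% and 5.26%, against 16% and 25.4% of all genes), and 8 rose and 7 fell from zone II to III (42.1% and 36.8%, against 31% and 22.7%). Ribosomal centring gave 4 and 3 for the first step and 10 and 4 for the second. Slc2a13 is the proton-coupled carrier of myo-inositol, an osmolyte and the base of inositol lipids. Its signals were 308, 398, 345 and 388 (zone I), 1038, 1170.1, 1235 and 1991 (zone II) and 378, 401, 359.6 and 314 (zone III). All zone II arrays lay above all others, the outer zones overlapped, and the mean was 3.67-fold that of zone I (1.88 ± 0.18, adjusted p = 9.62e-06) and 3.63-fold that of zone III (-1.86 ± 0.18, adjusted p = 4.48e-06). Slc5a3 carries myo-inositol with sodium, and it is the carrier that cells raise in hypertonic medium. Its signals were 521, 457, 473 and 513 (zone I), 1031, 815, 1143 and 1052 (zone II) and 511, 463, 523 and 473 (zone III). It rose by 1.03 ± 0.12 and fell by 1.03 on the log2 scale (adjusted p = 3.32e-05 and 1.61e-05), and both inositol carriers were highest in zone II. The differences between zones III and I were 0.02 ± 0.18 for Slc2a13 and 0.01 ± 0.12 for Slc5a3, and neither was called.

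Slc13a5 takes up citrate with sodium, and citrate is a constituent of bone mineral. Its signals were 105, 112, 128 and 87.9 (zone I), 901, 984, 1078 and 1185 (zone II) and 816, 666, 816 and 834 (zone III). It rose 9.61-fold from zone I to II (adjusted p = 1.53e-08) and stayed 7.26-fold above zone I in zone III (adjusted p = 1.83e-08). The step down from zone II to III, -0.404 ± 0.14 (adjusted p = 0.0292), was lost with quantile normalization (adjusted p = 0.0972), with ribosomal centring (-0.02, adjusted p = 0.914) and when array C or D of zone II or array B of zone III was left out (-0.38, -0.34 and -0.33, adjusted p = 0.064, 0.0807 and 0.0905). Slc13a3, the related carrier of succinate and other dicarboxylates, was low in the cartilage zones and read 59.2, 65.2, 50.1 and 39.2 in zone III, the zone through which it passed the limit. Slc13a4, the sulphate carrier of the same family, is described with the Golgi carriers below because its substrate is used there.

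The monocarboxylate family Slc16, which moves lactate, pyruvate and related acids, held opposite patterns. Slc16a7 prefers pyruvate and lactate. Its signals were 70.97, 58.4, 63.7 and 88.7 (zone I), 78.2, 81.2, 67.7 and 67.1 (zone II) and 695, 637, 561 and 478 (zone III), 8.01-fold higher in zone III than in zone II (3.002 ± 0.16, adjusted p = 3.32e-08), with no overlap. Slc16a4, whose substrate is less settled, ran the other way. It read 436, 422, 338 and 409 on the zone I arrays, 444, 509.6, 359 and 305 on those of zone II and 45.3, 42.8, 56.4 and 60.5 on those of zone III, a fall of 2.97 on the log2 scale from zone II to III (SE 0.17, adjusted p = 7.45e-08). A dimmer probe set of Slc16a4, with zone means of 54.6, 29.6 and 33.7, did not show that fall (log2 difference 0.36). Slc16a10, an aromatic amino acid carrier, was higher in zone III than in zone II too, by 0.95 ± 0.21 (adjusted p = 0.00261), and Slc16a6, above the limit in zone III only, had zone means of 14.01, 12.01 and 78.7. Of the 6 members of the family, 4 rose and 1 fell from zone II to III, where 31% and 22.7% of all genes did.

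Among other sugar carriers Slc45a3 rose at each step, with zone means of 24.3, 57.8 and 178, and its zone III arrays read 171, 190.3, 159 and 192. Slc2a8, an intracellular member of the glucose carrier family, was higher in zone III (106 ± 10.5, mean ± SD, n = 4) than in zone II (54.3 ± 13.3), with adjusted p = 0.000614. Slc50a1, a sugar carrier of a separate family, was 2.06-fold lower in zone III than in zone II (adjusted p = 0.000211), at 224, 252, 241 and 289.

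**Figure D2:**
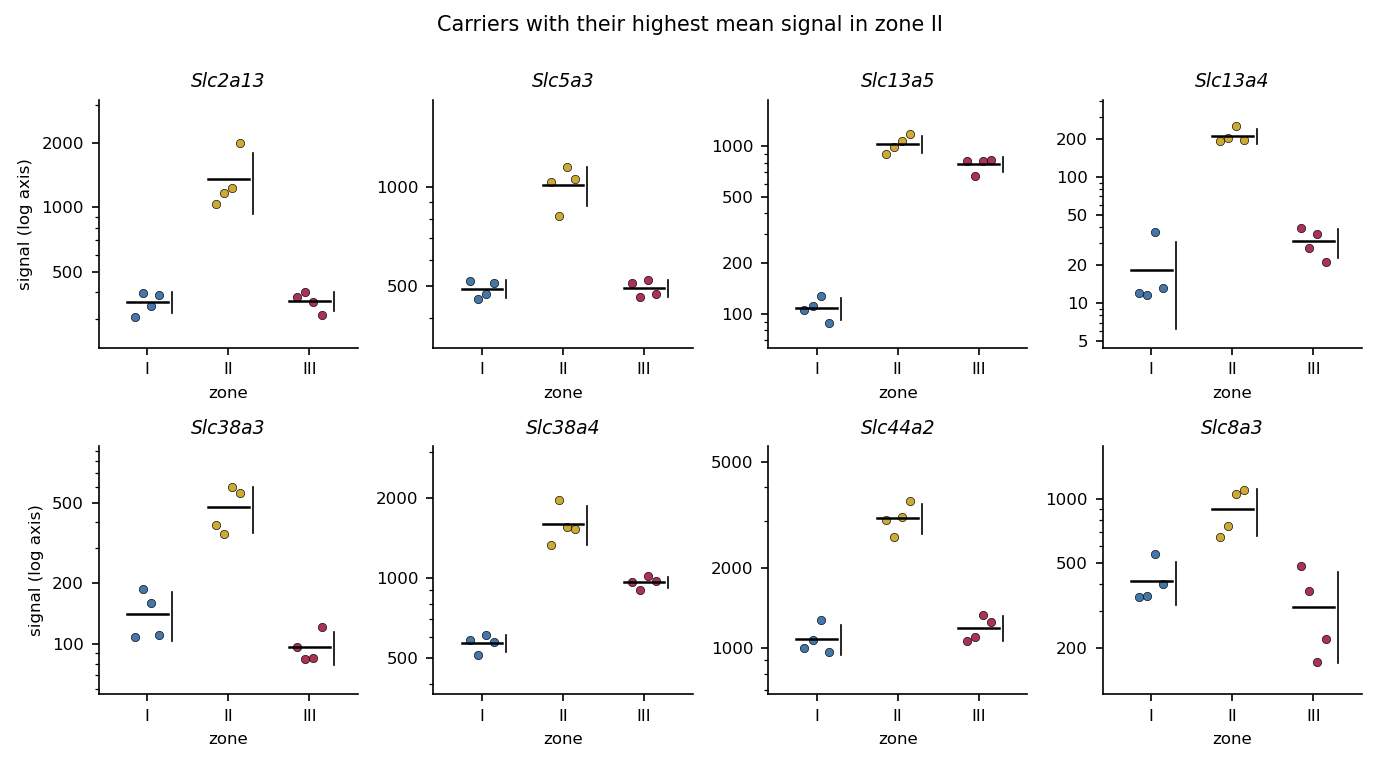
Signal on each array (points, log axis that differs between panels) of 8 carriers whose mean was highest in zone II, with the zone mean (bar) and SD (vertical line, n = 4 arrays). The 4 points of zone II lie above the 8 others in every panel, and the means of zone II are 1359 for Slc2a13, 3077 for Slc44a2 and 212 for Slc13a4. Slc13a4 passed the limit through zone II only, so its points are drawn but not read as a result.

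The carriers of amino acids and peptides were the class with the most calls from zone I to III. Of 34, 17 rose and 4 fell (50% and 11.8%, against 21.7% and 21.7% of all genes), with a median of 0.52 against -0.01. From zone I to II 8 rose and 3 fell (23.5% and 8.82%, against 16% and 25.4%), and from zone II to III 13 rose and 5 fell (38.2% and 14.7%, against 31% and 22.7%). Under ribosomal centring the first step read 6 higher and 7 lower and the second 20 and 5.

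The largest difference in the class belonged to Slc36a2, a proton-coupled carrier of glycine, proline and alanine. Its signals were 21.1, 31.1, 19.96 and 33.3 (zone I), 69.7, 34.9, 46.1 and 51.8 (zone II) and 665, 586, 713 and 703 (zone III). Zone III was 13.5-fold above zone II (3.76 ± 0.22, adjusted p = 6.63e-08), and zone II was also above zone I (0.93 ± 0.22, adjusted p = 0.00504). Slc36a1, its relative in the membrane of lysosomes, rose 2.12-fold from zone II to III, from 61.5, 45.3, 71.5 and 60.3 to 129, 113, 126 and 132. Slc7a7 is the light chain that exchanges cationic amino acids for neutral ones. It read 56.999, 48.3, 16.6 and 35.8 on the zone I arrays, 43.9, 44.7, 45.7 and 61.7 on those of zone II and 245, 246, 234 and 229 on those of zone III, so that it passed the limit in zone III, where all 4 arrays lay above the others. Slc66a1, which lets cationic amino acids out of lysosomes, had zone means of 68.2, 150.3 and 228 and stood above zone I in both other zones (adjusted p = 0.00178 in zone II and 3.99e-05 in zone III). Slc43a2, a facilitated carrier of large neutral amino acids, rose at both steps, to 178, 233, 215 and 146 in zone III, although the mean of its probe sets did not hold the second step (0.48, adjusted p = 0.123).

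The Slc38 family, which carries glutamine and other small neutral amino acids with sodium, split by zone. Slc38a3 and Slc38a4 peaked in zone II. The signals of Slc38a3, the glutamine carrier that runs in either direction, were 109, 187, 160.1 and 111 (zone I), 389, 351, 594 and 559 (zone II) and 96.5, 84.3, 84.9 and 122 (zone III). It was 3.35-fold higher in zone II than in zone I (adjusted p = 8.10e-05) and 4.82-fold higher than in zone III (adjusted p = 4.44e-06). Those of Slc38a4 were 585, 511, 609 and 572 (zone I), 1332, 1964, 1558 and 1532 (zone II) and 966, 905, 1021 and 971 (zone III), with each zone apart from the others. Slc38a1 and Slc38a6 instead had their lowest signals in zone II. Slc38a6 read 226, 262, 245 and 370.3 on the zone I arrays, 155, 195, 171 and 186 on those of zone II and 593, 659.6, 669 and 532 on those of zone III, and zone III was 3.47-fold above zone II (adjusted p = 1.52e-06). Slc38a1, the glutamine importer, rose from 208 ± 36.4 to 464 ± 45.9 (adjusted p = 3.74e-05). Of the 7 members of the family 3 rose and 2 fell at each of the steps from zone I to II (16% and 25.4% of all genes) and from zone II to III (31% and 22.7%), and 5 rose and 0 fell from zone I to III (21.7% and 21.7%) in limma, with 1 lower at an unadjusted p under 0.05.

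Both of the next carriers, known best from the nervous system, fell in zone III. Slc6a15, a sodium-coupled carrier of branched-chain amino acids and proline, read 109, 157, 112 and 163 on the zone I arrays, 198, 195, 162 and 235 on those of zone II and 27.6, 31.3, 25.1 and 27.3 on those of zone III, 7.06-fold lower in zone III than in zone II (adjusted p = 6.90e-08). Slc1a3, the glial glutamate carrier, fell from 100.1, 78.6, 169 and 127 in zone II to 7.15, 32.7, 11.9 and 30.01 in zone III (-2.75 ± 0.42, adjusted p = 0.000166), and its dimmer probe set fell as well (-4.93). Of the 3 nerve markers measured, 3 were lower in zone III than in zone I (21.7% of all genes). From zone II to III 2 of them rose and 1 fell (31% and 22.7%). The part of nerve cells in the falls of Slc6a15 and Slc1a3 was not tested. Slc6a6, the taurine carrier, was lowest in zone II at 69.5, 61.3, 51.1 and 78.4 and highest in zone III at 182, 144, 185 and 164, and taurine is another osmolyte.

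The genes of the amino acid response, a list of 11 of which 10 were measured, were counted beside these carriers. From zone I to II 5 rose and 0 fell, in limma and with 0 lower also at an unadjusted p under 0.05, where 16% and 25.4% of all genes did, and from zone II to III 2 rose and 4 fell, against 31% and 22.7%. Asns, which makes asparagine, read 634, 619.7, 707 and 646 (zone I), 1072, 1285, 1528 and 1306 (zone II) and 625, 679.6, 645 and 576 (zone III) and peaked in zone II as Slc38a3 and Slc38a4 did. Atf4, the factor of the response, had zone means of 1788, 2407 and 1606. Nupr1 and Sesn2 were highest in zone III, with zone means of 109, 426 and 771 and of 34.8, 41.96 and 98.1.

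Among the classes of 9 or more, the carriers of metal ions had the largest share of rises from zone I to II. Of 27, 12 rose and 3 fell, or 44.4% and 11.1% (median 0.39), against 16% and 25.4% of all genes. From zone II to III 8 rose and 10 fell, or 29.6% and 37%, against 31% and 22.7%. Under ribosomal centring the first step became 6 higher and 8 lower and the second 10 and 4, and under median centring the second became 6 and 16. Among them are the zinc exporters of the Slc30 family, which move zinc out of the cytosol into vesicles or out of the cell, and the importers of the Slc39 family, which bring it into the cytosol.

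The Slc30 members that supply the secretory pathway shared a peak in zone II. Slc30a5, Slc30a6 and Slc30a7 load zinc into the early secretory pathway, where alkaline phosphatase takes it up. Slc30a6 read 349, 377, 419 and 409 on the zone I arrays, 569, 715, 739.6 and 626 on those of zone II and 294, 294, 359 and 355 on those of zone III, a rise of 0.77 ± 0.12 and a fall of 1.02 on the log2 scale (adjusted p = 0.000473 and 2.48e-05). Slc30a7 read 447, 463, 387 and 490.01 on the zone I arrays, 805, 893, 721 and 679 on those of zone II and 439.8, 481, 408 and 452 on those of zone III, 1.73-fold higher in zone II than in zone I (adjusted p = 0.000276). Slc30a5 changed less, with zone means of 1274, 1705 and 1219 (0.42 ± 0.09 and -0.48 ± 0.09), and both of its calls were lost with quantile normalization (adjusted p = 0.0625 and 0.0557) and with ribosomal centring. Slc30a9, which is outside that secretory group, peaked in zone II too, with zone means of 599.96, 958 and 567 (adjusted p = 0.00188 and 0.000518). The peak was thus not particular to the secretory exporters. Slc39a7, which releases zinc from the endoplasmic reticulum, peaked likewise at 2247, 1999, 1835 and 1936 against 1281, 1176, 1185 and 1159 in zone III (adjusted p = 0.000225), although its rise from zone I was lost with quantile normalization (adjusted p = 0.119). Of the 8 Slc30 members 5 rose and 1 fell from zone I to II (16% and 25.4% of all genes), and 2 rose and 5 fell from zone II to III (31% and 22.7%).

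The promoter of Slc30a5 is shown because it holds the unfolded protein response element TGACGTGG (in capitals). In all 9 motifs were searched in the promoters, and the matches shown were picked from the results. The RefSeq promoters used here run from 250 bases before the start site to 50 after it on GRCm38.p6, and 137 members have 185 of them. The element was found on either strand in 3.24% of the member promoters and in 0.676% of all 32851. Its first base in Slc30a5 lies at 7 after the start site. The other members with it were Slc19a3, Slc22a17, Slc39a13 and Slc7a6, and Slc30a6 and Slc30a7 were not among them. A match of these letters is not a bound site.
Slc30a5, chr13:100833378-100833677, minus strand: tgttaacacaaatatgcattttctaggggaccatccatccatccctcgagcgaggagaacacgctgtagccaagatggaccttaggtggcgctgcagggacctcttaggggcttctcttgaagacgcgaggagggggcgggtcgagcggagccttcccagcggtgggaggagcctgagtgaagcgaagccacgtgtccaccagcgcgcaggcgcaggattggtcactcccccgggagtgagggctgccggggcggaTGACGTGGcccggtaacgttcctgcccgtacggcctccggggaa

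The exporter of the plasma membrane and 2 carriers that were high at the bone front had other shapes. Slc30a1 moves zinc out of the cell and is a known target of the zinc sensor Mtf1, as are the metallothioneins Mt1 and Mt2, which bind zinc. Its signals were 181, 261, 231 and 275 (zone I), 127, 99.4, 161 and 132 (zone II) and 248, 325, 318 and 388 (zone III). The first step was a 1.83-fold fall (adjusted p = 0.00289) and the second a 2.47-fold rise (adjusted p = 8.93e-05). Mt2 read 208, 172, 88.6 and 185 on the zone I arrays, 107, 75.5, 64.2 and 65.5 on those of zone II and 1212, 1229, 1160.01 and 1011 on those of zone III. By mean both genes were lowest in zone II and highest in zone III. The arrays of Slc30a1 overlapped between zones I and III, however, and those of Mt2 between zones I and II. Mt1 read 233, 179.6, 115 and 199.8 in zone II and 566, 599, 539 and 376 in zone III (1.54 ± 0.24, adjusted p = 0.000156), while zones I and II overlapped. Mtf1 itself had overlapping signals in all zones, with means of 173, 164 and 159.6.

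The promoter of Slc30a1 is printed because zinc-responsive genes carry metal response elements. The letters TGCACNC or TGCGCNC were searched on both strands, and the 2 matches in capitals, written here as they read on the gene's strand, begin 43 bases before and 31 after the start site (-43 and 31). Such matches were found in 34.6% of the member promoters and in 25.7% of all. The 58 members with a match include Slc30a5, which peaked in zone II.
Slc30a1, chr1:191906531-191906830, plus strand: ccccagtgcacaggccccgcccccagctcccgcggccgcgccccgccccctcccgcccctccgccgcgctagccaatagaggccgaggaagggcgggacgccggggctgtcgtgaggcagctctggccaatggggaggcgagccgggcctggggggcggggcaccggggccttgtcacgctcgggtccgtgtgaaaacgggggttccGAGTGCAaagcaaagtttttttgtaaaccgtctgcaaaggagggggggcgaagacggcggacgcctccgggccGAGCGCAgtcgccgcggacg

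Slc30a2, a vesicular zinc exporter, read 10.1, 13.1, 11.8 and 10.9 on the zone I arrays, 40.8, 16.3, 37.05 and 34.9 on those of zone II and 233, 213, 241 and 258 on those of zone III. It passed the limit of 50 in zone III only, and the zones did not overlap. Slc39a8, which imports zinc and manganese, read 59.2, 50.2, 55.3 and 61.9 on the zone I arrays, 202, 222, 256 and 248 on those of zone II and 401, 324, 358 and 337 on those of zone III. It rose 4.09-fold from zone I to II (adjusted p = 1.57e-07) and again 1.53-fold to zone III (adjusted p = 0.000914), and the 3 zones did not overlap. Slc39a13, whose loss causes a connective tissue disease with short stature, was higher in zone II (405 ± 24.2) and zone III (379 ± 23.2) than in zone I (278 ± 18.03, adjusted p = 0.00106 and 0.00311). Slc39a14 peaked in zone II, with means of 809, 1146 and 752, and Slc39a10 was highest in zone III, with means of 936, 728 and 1298. The rises of Slc39a13 and Slc39a14 to zone II were lost with ribosomal centring (adjusted p = 0.0707 and 0.245).

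**Figure D3:**
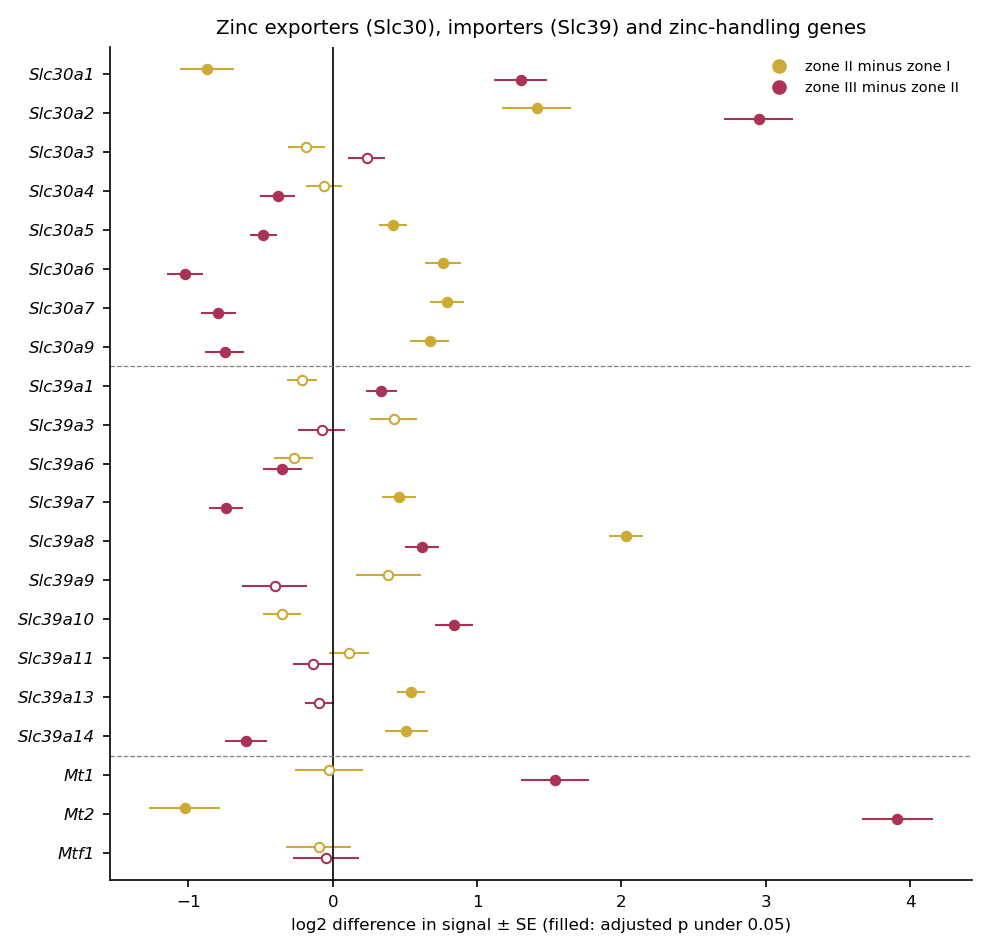
Log2 difference in signal from zone I to II (yellow) and from zone II to III (red) with the SE from limma, for the 8 zinc exporters of family Slc30, the 10 importers of family Slc39 and 3 zinc-handling genes, filled where the adjusted p is under 0.05. Slc30a5, Slc30a6, Slc30a7 and Slc30a9 have a yellow point above 0 and a red point below it, and Slc30a1 lies the other way round, with -0.87 and 1.302.

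Among the iron and copper carriers Slc40a1, the iron exporter ferroportin, had means of 441, 314 and 430.2, and its dip in zone II was lost with median centring (adjusted p = 0.117 against zone I) and without zone I array D (-0.42, adjusted p = 0.0511). Slc11a1, the metal carrier of macrophage phagosomes, was 2.64-fold higher in zone III than in zone II, at 160.2, 184, 136 and 119.7 (adjusted p = 0.000166), and the macrophage markers were higher there as well. Slc31a1, the copper importer, rose from 358 to 515 in zone II (adjusted p = 0.00672, 0.182 with ribosomal centring), and its relative Slc31a2 rose to 259, 322, 295 and 278 in zone III (adjusted p = 3.16e-05 against zone II). Of 13 iron and haem genes 10 were measured, and 0 rose and 1 fell from zone I to II in limma, with 2 higher at an unadjusted p under 0.05, against 16% and 25.4% of all genes, while 3 rose and 0 fell from zone II to III, against 31% and 22.7%, among them the haem oxygenase Hmox1 with means of 52.3, 53.4 and 130.1.

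Among the classes of 9 or more, the carriers of the Golgi and the endoplasmic reticulum had the largest share of falls from zone II to III. Of 9, 3 rose and 1 fell from zone I to II (33.3% and 11.1%, against 16% and 25.4% of all genes), and 1 rose and 6 fell from zone II to III (11.1% and 66.7%, against 31% and 22.7%). Under ribosomal centring the second step read 3 higher and 3 lower. Slc35a2 brings UDP-galactose into the Golgi, and Slc35a3 brings UDP-N-acetylglucosamine, both used in glycosaminoglycan and other glycan chains. Slc35a3 read 634, 795, 717 and 919.8 on the zone I arrays, 1079, 1317, 1233 and 1105 on those of zone II and 372, 343, 398 and 355 on those of zone III. It rose 1.55-fold and then fell 3.22-fold (adjusted p = 0.00207 and 5.23e-07), and the 3 zones did not overlap. Slc35a2 read 627, 993, 877 and 686 on the zone I arrays, 1396, 1382, 1340.2 and 1567 on those of zone II and 680.3, 576, 581 and 685 on those of zone III, with a rise of 0.86 ± 0.15 and a fall of 1.17 on the log2 scale (adjusted p = 0.000709 and 3.26e-05). Slc33a1, which brings acetyl-CoA into the endoplasmic reticulum, peaked in zone II too, with means of 366, 598 and 414. With ribosomal centring the fall of Slc33a1 to zone III (adjusted p = 0.449) and the rise of Slc35a3 to zone II (adjusted p = 0.05) were lost. Slc35a1, which carries CMP-sialic acid, did not follow them and was 1.44-fold lower in zone II than in zone I (adjusted p = 0.0047), a call lost with median centring (adjusted p = 0.0571).

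Slc13a4 is a sodium-coupled sulphate carrier of the plasma membrane, and sulphate is the substrate of proteoglycan sulphation. Its signals were 12.1, 11.6, 36.8 and 13.2 (zone I), 191, 203, 256 and 197 (zone II) and 39.3, 27.5, 35.3 and 21.3 (zone III). All 4 arrays of zone II lay above the others, and zone II was the zone through which the gene passed the limit of 50. The 13 measured genes of 15 that make nucleotide sugars and the sulphate donor counted 0 higher and 11 lower from zone II to III (31% and 22.7% of all genes), and 7 higher and 0 lower from zone I to II (16% and 25.4%), in limma, and at an unadjusted p under 0.05 the counts of 0 stayed at 0. Papss2, which makes the sulphate donor, had means of 2871, 3712 and 504, and Ugp2, which makes UDP-glucose, of 1684, 3323 and 992. Slc10a7, a carrier of the Golgi region whose loss causes a skeletal dysplasia with faulty proteoglycans, was 2.31-fold lower in zone III (396, 465, 373 and 416) than in zone II (798, 990.05, 1064 and 977, adjusted p = 1.39e-05), while zones I and II overlapped. The chondrocyte markers were lower in zone III too, and their part in these falls was not tested.

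**Figure D4:**
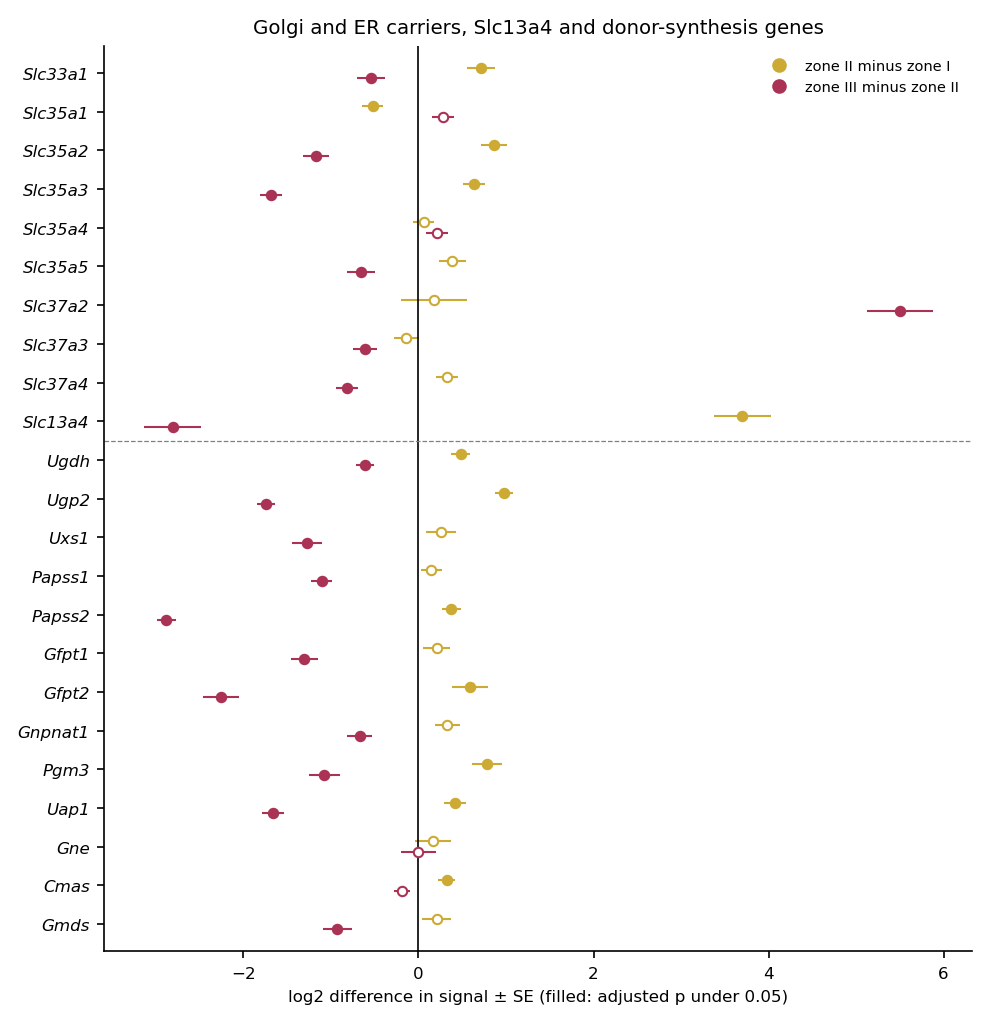
Log2 difference in signal from zone I to II (yellow) and from zone II to III (red) with the SE from limma, for the 9 carriers of the Golgi and endoplasmic reticulum, the sulphate carrier Slc13a4 and the 13 measured genes that make nucleotide sugars and the sulphate donor, filled where the adjusted p is under 0.05. Of the red points 6 of 9 Golgi and ER carriers and 11 of 13 donor genes are filled and below 0. Slc37a2 passed the limit through zone III only and Slc13a4 through zone II only, so their points are drawn but not read as results.

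The Slc37 family, which includes sugar phosphate exchangers, was counted here with the carriers of the Golgi and endoplasmic reticulum. Slc37a2, known from macrophages and osteoclasts, read 32.3, 17.2, 18.6 and 16.96 on the zone I arrays, 53.1, 23.3, 20.2 and 11.4 on those of zone II and 1243, 1065, 1089.9 and 820.1 on those of zone III. It passed the limit through zone III, and both cartilage zones had means under 50. Slc37a3 and Slc37a4, the glucose-6-phosphate carrier of glucose release, fell from zone II to III, from 436 ± 49.6 to 286 ± 28.2 and from 299.8 ± 33.7 to 169.7 ± 4.95 (adjusted p = 0.00307 and 0.000165). The fall of Slc37a3 was lost with ribosomal centring (adjusted p = 0.249).

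The promoter of Slc37a2 holds an AP-1 site, TGACTCA, which reads TGAGTCA on the gene's strand (in capitals, first base at -107). AP-1 factors act in osteoclast formation. The site was found in 3.24% of the member promoters and in 5.2% of all, so it was not more common among the members. Slc12a5, Slc25a13, Slc49a4, Slc6a17 and Slc9a3r2 hold it too. Such a match is not a bound site, and its part in the zone III signal was not tested.
Slc37a2, chr9:37255689-37255988, minus strand: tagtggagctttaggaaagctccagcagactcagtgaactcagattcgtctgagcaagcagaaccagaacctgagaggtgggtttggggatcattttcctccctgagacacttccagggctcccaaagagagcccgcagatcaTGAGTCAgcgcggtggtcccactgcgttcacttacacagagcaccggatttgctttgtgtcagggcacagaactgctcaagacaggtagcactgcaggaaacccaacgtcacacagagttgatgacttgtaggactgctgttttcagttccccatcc

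Several ion carriers were higher in zone III than in zone II. Of the 19 carriers of bicarbonate, protons, chloride, sodium and calcium, 7 rose and 2 fell from zone II to III (36.8% and 10.5%, against 31% and 22.7% of all genes), and 3 rose and 6 fell from zone I to II (15.8% and 31.6%, against 16% and 25.4%). That first step read 4 higher and 2 lower with median centring, 3 and 3 with quantile normalization and 2 and 10 with ribosomal centring, and the second rose to 14 and 1 with ribosomal centring. Slc4a2 is the chloride and bicarbonate exchanger that osteoclasts need to resorb bone. Its signals were 216, 302, 224 and 209.5 (zone I), 191, 138, 156 and 202 (zone II) and 718, 683, 654 and 613 (zone III). Zone III was 3.93-fold above zone II (1.97 ± 0.15, adjusted p = 5.77e-07) and 2.83-fold above zone I (adjusted p = 7.72e-06). Slc9a9, a sodium and proton exchanger of endosomes, read 7.66, 17.8, 17.8 and 10.8 in zone II and 120.5, 102, 77.1 and 109 in zone III, the zone through which it passed the limit. Slc12a7, a potassium and chloride cotransporter, rose from a mean of 66.8 to 223 (adjusted p = 1.23e-05), and its relative Slc12a5, above the limit in zone III only, had zone means of 43.6, 37.2 and 128.

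Of 10 genes of acid secretion, which are the partners of Slc4a2, 8 rose and 0 fell from zone II to III (31% and 22.7% of all genes), and 9 rose and 0 fell from zone I to III (21.7% and 21.7%) in limma, with 0 lower also at an unadjusted p under 0.05. Tcirg1 and Atp6v0d2, subunits of the proton pump of osteoclasts, had zone means of 106, 71.4 and 458 and of 36.6, 45.1 and 927, Clcn7, the chloride exchanger beside the pump, of 85.5, 64.9 and 352, and Car2, the enzyme that makes bicarbonate and protons, of 78.98, 108 and 493. The osteoclast markers, whose sums were given above, were higher in zone III than in zone II, as were Slc4a2 and 8 of these 10 genes. Atp6v0d2 is on both lists, so the lists are not separate. The part of osteoclasts in the rise of Slc4a2 was not tested.

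Slc26a7, a chloride and anion carrier, was one of the 3 members whose zone I arrays lay above all others. It read 1057, 608, 699.9 and 1072 on the zone I arrays, 56.6, 86.2, 81.3 and 53.7 on those of zone II and 306, 317, 199 and 198 on those of zone III, a 12.3-fold fall to zone II (adjusted p = 5.06e-07) and a 3.66-fold rise to zone III (adjusted p = 4.63e-05). All 3 zones lay apart. Slc12a2, the sodium, potassium and chloride cotransporter that restores cell volume, read 1019, 1029.9, 1052 and 1038 in zone I and was 1.48-fold lower in zone III (adjusted p = 0.0019). Slc22a14, an organic ion carrier, had means of 59.9 ± 13.3, 29.3 ± 5.52 and 3.87 ± 0.987, and only zone I passed the limit of 50. Slc8a3, a sodium and calcium exchanger, had its peak in zone II. Its signals were 349, 352, 553 and 401 (zone I), 663, 751, 1056 and 1108 (zone II) and 485, 372, 173 and 221 (zone III), and it fell 3.03-fold from zone II to III (adjusted p = 0.000808).

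**Figure D5:**
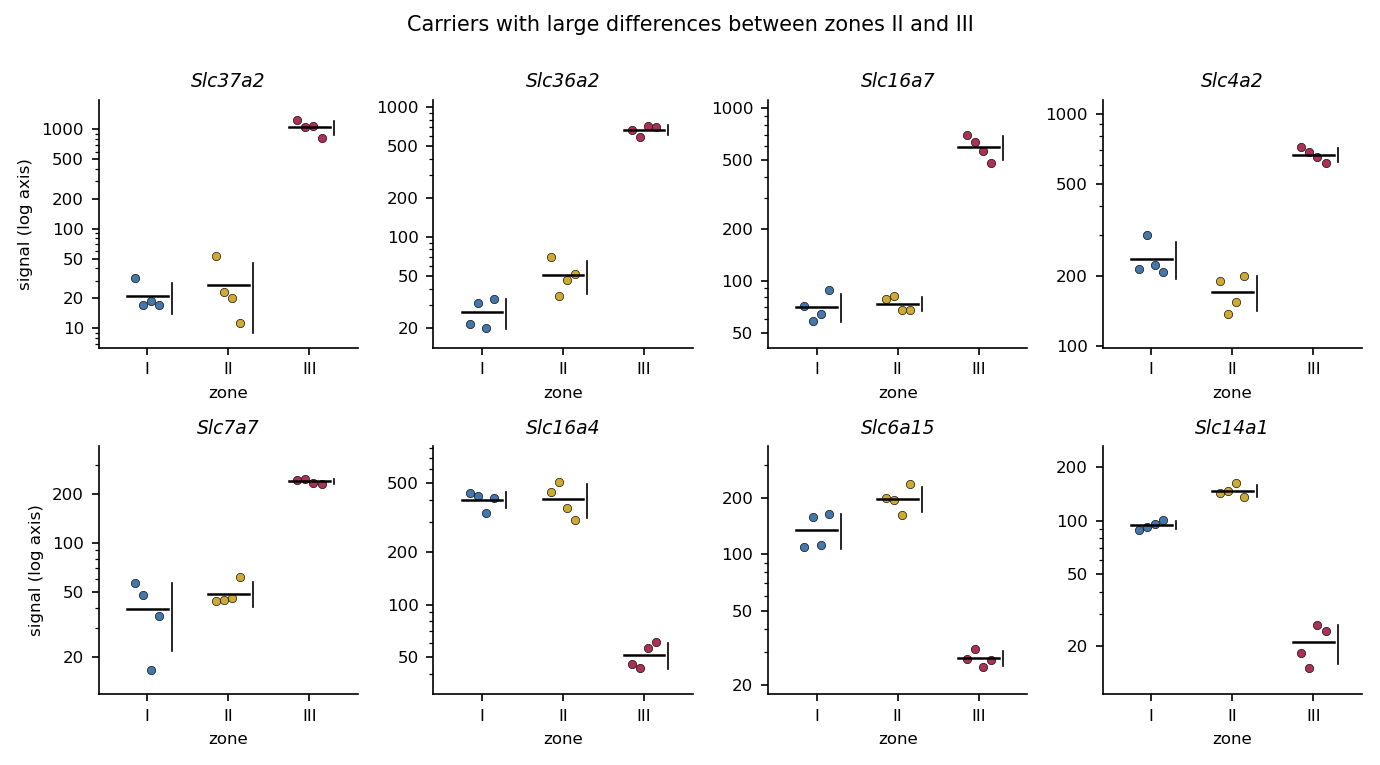
Signal on each array (points, log axis that differs between panels) of 8 carriers with unlike signals in zones II and III, with the zone mean (bar) and SD (vertical line, n = 4 arrays). The zone III points of Slc37a2, Slc36a2, Slc16a7, Slc4a2 and Slc7a7 lie above those of both other zones, and those of Slc16a4, Slc6a15 and Slc14a1 lie below them. Slc37a2 and Slc7a7 passed the limit through zone III only, so their points are drawn but not read as results.

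Most of the 35 members of the Slc25 family are carriers of the mitochondrial inner membrane. Of the 35, 20% were called from zone I to II, where 41.4% of all genes were. In that step 7 rose and 0 fell in limma, with 1 lower at an unadjusted p under 0.05, against 16% and 25.4% of all genes. From zone II to III 6 rose and 8 fell, or 17.1% and 22.9%, against 31% and 22.7%. The balance followed the scale, since the first step became 2 higher and 6 lower and the second 17 and 1 with ribosomal centring, while median centring gave 15 and 0 and then 3 and 15. Slc25a13, the aspartate and glutamate exchanger citrin, changed most. It read 76.5, 96.5, 89.2 and 92.4 on the zone I arrays, 284, 279.9, 351 and 375 on those of zone II and 203, 230.1, 250.6 and 194 on those of zone III, a 3.62-fold rise (adjusted p = 9.12e-07), and zone III was still 2.47-fold above zone I (adjusted p = 9.55e-06). Its fall from zone II to III, -0.55 ± 0.14 (adjusted p = 0.00478), was lost with ribosomal centring (-0.17, adjusted p = 0.409). Slc25a1, which exports citrate from mitochondria for lipid synthesis, had signals of 720.4, 944, 572 and 697 (zone I), 1443, 1506, 1009 and 1267 (zone II) and 944, 866, 707 and 796 (zone III), and zone II was 1.79-fold above zone I (adjusted p = 0.00232). Its fall to zone III, -0.65 ± 0.17 (adjusted p = 0.00752), was lost with ribosomal centring (-0.27, adjusted p = 0.266). Slc25a10, the dicarboxylate carrier, rose to 384, 374, 341 and 412 in zone III (adjusted p = 0.00013 against zone II).

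Some of the mitochondrial carriers handle ATP and phosphate. Slc25a4 and Slc25a5 exchange ADP for ATP, and Slc25a3 brings phosphate in. Slc25a4 had means of 3414, 4255 and 3081, and its rise to zone II was lost with quantile normalization (-0.01, adjusted p = 0.932) and with array B or D of zone I or array A or B of zone II left out (0.28, 0.30, 0.27 and 0.30, adjusted p = 0.065, 0.0566, 0.0752 and 0.0577). Slc25a5 had means of 2780.2, 3912 and 3492, and its 8 probe sets gave log2 differences from zone II to III of -0.24 to 0.20, so no direction is given for that step. Both genes have near-identical relatives, and probe sets of this kind can bind related transcripts. Of 14 genes of respiration 6 rose and 0 fell from zone I to II in limma, with 0 lower also at an unadjusted p under 0.05, where 16% and 25.4% of all genes did, and 1 rose and 5 fell from zone II to III, against 31% and 22.7%.

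The choline family Slc44 held opposite patterns. Slc44a2, a choline-like carrier, read 1004, 1074, 1274 and 967 on the zone I arrays, 3021, 2611, 3107 and 3569 on those of zone II and 1064, 1103, 1338 and 1253 on those of zone III. It was 2.85-fold higher in zone II than in zone I and 2.58-fold higher than in zone III (adjusted p = 3.99e-06 and 3.83e-06). Slc44a1, the choline carrier, was lowest in zone II and read 622, 650.1, 675 and 586 on the zone I arrays, 416, 457, 482 and 506 on those of zone II and 1296, 1196, 1191 and 1026 on those of zone III, with a rise of 1.34 ± 0.11 from zone II to III (adjusted p = 9.23e-07). Both genes had another probe set with the same signs over that step. Of the 14 carriers of lipids, bile acids, choline and organic ions, 4 rose and 5 fell from zone II to III (28.6% and 35.7%, against 31% and 22.7% of all genes), and 5 and 3 with ribosomal centring.

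Of the 12 carriers of nucleosides, vitamins and haem 0 rose and 4 fell from zone I to II in limma, with 0 higher also at an unadjusted p under 0.05. The falls are 33.3%, against 25.4% of all genes, and they became 1 with median centring and 1 with quantile normalization. From zone II to III 7 rose and 2 fell (58.3% and 16.7%, against 31% and 22.7%). Slc29a1, the nucleoside carrier of the plasma membrane, read 144, 237, 255 and 193 on the zone I arrays, 104, 78.8, 139.8 and 119 on those of zone II and 319, 346, 301 and 338 on those of zone III, 3.01-fold higher in zone III than in zone II (adjusted p = 3.10e-05). Slc48a1, which moves haem out of the lysosomes that digest red cells, rose from 84.3 ± 12.8 to 212 ± 16.7 (adjusted p = 8.91e-06), and Slc23a2, the vitamin C carrier, from 74.6 ± 4.59 to 157 ± 11.01 (adjusted p = 0.000103). The vitamin carriers that fell were Slc19a3, for thiamine, from 93.6 ± 14.5 to 34.8 ± 11.99, and Slc19a1, for folate, from 302 ± 19.3 to 203 ± 19.4, a call lost with ribosomal centring (adjusted p = 0.433). The urea carrier Slc14a1 also fell. It read 89.1, 91.9, 95.5 and 100.5 on the zone I arrays, 143, 146, 163 and 136 on those of zone II and 18.2, 14.99, 26.2 and 24.1 on those of zone III, 7.205-fold lower in zone III than in zone II (adjusted p = 5.41e-08), and its other probe set fell likewise (-3.04).

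The members with the smallest range between zone means, among those above the limit in all zones, were Slc22a26, Slc17a5, Slc14a2, Slc25a44 and Slc39a11. Slc17a5, the sialic acid carrier of lysosomes, had means of 239 ± 58.5, 231 ± 46.2 and 242 ± 9.297, and Slc39a11 of 396 ± 25.7, 430.2 ± 58.2 and 394 ± 65.1. None of their differences was called.

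The signs of the calls were also read within each of the 3 runs that share a hybridization time, each of which held all zones. Of the 68 called members from zone I to II, 67 had the same sign in all 3 runs. So had 103 of 104 from zone II to III and 82 of 85 from zone I to III. The runs are parts of the arrays that gave the calls, so a shared sign was likely in advance and is no independent support. Where a called member had other probe sets above the limit, all of them shared the sign in 31 of 34, 40 of 43 and 32 of 34 members, and 0 were called the other way.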

How the data were processed

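RNA of 3 tibia zones was measured on 12 Affymetrix MOE 430 2.0 arrays, 4 per zone. The deposited signal intensities are linear, and the authors brought every array to a mean of 150 when 2% is trimmed from both ends. The submitters' notes name RMA and the study's methods GCRMA in GeneSpring GX, but the deposited values are linear with a common trimmed mean, so which algorithm made them is not settled. The number of arrays limits the precision. Probe sets with a mean of at least 50 in 1 zone were kept (22255), and log2 signals were tested with limma 3.58.1 (R 4.3.3; lmFit, eBayes) over all arrays, with Benjamini-Hochberg adjustment over all kept probe sets within each comparison. Shares over all genes used 1 probe set per gene. The scripts were tested on simulated data. Array letters matched litters in no label, so they were used as a block only as an alternative. The 3 runs are arrays whose deposited fluidics records share a hybridization time. The members and lists were chosen with earlier results of these data known. Members were named where their adjusted p was under 0.05 and their difference was among the 10 largest of a comparison and direction without overlap or the 2 largest of a class, where their signal was among the 10 highest, or where they differed least (5), which gave 85 members, and 20 more were named after their values were seen. Alternatives were other filters, scalings, probe set rules, variance settings, blocks and each array left out. Promoters were taken from RefSeq (GRCm38.p6).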

Additional observations from a re-analysis of the deposited data

Results flagged for a closer look

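Of 315 groups of 4 arrays looked at among the named members, 21 had 1 array set apart from the other arrays of its zone. An array was set apart by Dixon's ratio, its gap to the nearest array over the range of the 4. If signals are normally distributed, about 1 in 20 groups pass the cut-off of that ratio by chance. Arrays above the others of their zone were zone I array A and zone II array A for Slc13a3 (16.3 against 5.75 to 7.005, and 19.7 against 12.7 to 13.7), zone I array C for Slc13a4 (36.8 against 11.6 to 13.2) and for Slc17a5 (326 against 198 to 217), and zone I array D for Slc25a32 (373 against 278 to 295). The same held for zone III array A for Slc25a39 (1962 against 1544 to 1612), zone III array B for Slc2a8 (122 against 100.01 to 102) and for Slc41a3 (208 against 37.7 to 54.0), and zone II array B for Slc30a4 (701 against 525 to 545). It also held for zone I array A for Slc37a2 (32.3 against 16.96 to 18.6), zone I array B for Slc4a2 (302 against 209.5 to 224) and zone II array D for Slc7a7 (61.7 against 43.9 to 45.7).

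Arrays below the others of their zone were zone III array B for Slc13a5 (666 against 816 to 834), Slc17a9 (44.4 against 68.2 to 72.7) and Slc33a1 (308 against 443 to 455), zone I array B for Slc25a30 (69.6 against 94.3 to 97.3), and zone II array A for Slc2a8 (34.5 against 58.1 to 62.4) and Slc39a10 (613 against 761 to 773). Zone I array C read 474 for Slc35a1 against 525 to 531, zone III array C 187 for Slc48a1 against 217 to 222, and zone II array C 208 for Slc66a2 against 263 to 273.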

How the results depend on the processing

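The counts of members depended most on the scale, and the shares of all genes were not recounted under each scaling. From zone I to II, 25 members rose and 51 fell with ribosomal protein centring, and 10 fell with median centring, 15 with only the 8 arrays compared and 14 at 1.5-fold or more. From zone II to III, 96 rose and 25 fell with ribosomal centring, and from zone I to III 15 fell at 1.5-fold or more. The share of rises among the calls was 66.2%, 53.8% and 71.8% in the 3 comparisons. From zone I to II it was 76.5% with quantile normalization, 86.1% with median centring and 32.9% with ribosomal centring, and from zone II to III it was 40.2% with median and 79.3% with ribosomal centring. Leaving out 1 array gave 39 to 48 rises and 20 to 24 falls from zone I to II, 51 to 57 and 42 to 49 from zone II to III, and 53 to 62 and 21 to 26 from zone I to III. With the replicate block on the array letters the counts were 47 and 24, 58 and 47, and 62 and 23. Deviations of arrays with the same letter correlated at -0.13 to 0.26 over 12 pairs (mean 0.12), and those with other letters at -0.30 to 0.23 (mean -0.04). No label says that a letter marks a litter, so a pairing by litter is possible but was not settled. Of 213 called differences of named members, 64 were lost under at least 1 alternative. Of these, 4 also turned in sign, Slc25a4 from zone I to II (-0.0109, quantile normalization) and, from zone II to III with ribosomal centring, Slc10a3 (0.0394), Slc30a4 (0.0017) and Slc39a6 (0.0327). From zone II to III 2 differences that were not called turned and were then called, Slc25a5 (0.30, quantile normalization) and Slc12a2 (0.32, ribosomal centring). The cause of these shifts was not tested. Signals far under 50 limit the folds of low members.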
